A study of Mus musculus with 6 samples.

Results

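Mitochondrially encoded RNAs are the transcripts of the small circular genome inside mitochondria. All genes of the count table whose mouse symbol starts with mt- were taken as members, which gave 37 of 47069 genes. They comprised 13 mRNAs, 2 rRNAs and 22 tRNAs, all on the mitochondrial chromosome. RNA was measured by bulk sequencing in LβT2 cells, an immortalized mouse gonadotrope line that was derived from a pituitary tumour of a mouse carrying SV40 T antigen under a gonadotropin promoter. Cells at passage 14 all received 2 nM gonadotropin-releasing hormone (GnRH), the hypothalamic peptide that drives gonadotropes, over 40 min. In the fresh group (3 libraries) the pelleted cells were lysed at once, and in the RNA-Best group (3 libraries) they were first kept in the preservation reagent RNA-Best, at 4 °C and for 4 days or longer. Untreated cells were not analysed here, so the only contrast is RNA-Best against fresh, which asks whether storage in the reagent leaves the transcript profile as it was. Separate cultures are not named for the libraries of either group, so p-values measure only the spread between these libraries, which may be technical.

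Transcription of mitochondrial DNA starts at a few sites and runs around both strands, giving long RNAs that hold many genes. The tRNAs lie between most of the other genes and are cut out of the long RNAs, which frees the mRNAs and rRNAs. The mRNAs encode subunits of respiratory complexes I, III and IV and of ATP synthase (complex V), the rRNAs form the core of the mitochondrial ribosome, and short poly(A) tails are added to most of these mRNAs. All other subunits of these complexes are encoded in the nucleus, and gonadotropes, like other secretory cells, spend the ATP made by these complexes on hormone synthesis and release.

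Some mitochondrial mRNAs end in a bare T that becomes a stop codon only when the poly(A) tail is added, and their sequences are shown because the libraries were made from poly(A) RNA. In the GENCODE annotation of GRCm38, 3 of the 13 mRNAs ended this way. The last 30 bases of these 3 are given first, followed by those of mt-Co1 and mt-Nd1, which end in a whole stop codon. Capitals mark the last codon, complete or not, and all 5 lie in the plus orientation of chrM.
mt-Co3, chrM:9361-9390: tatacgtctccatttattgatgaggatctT
mt-Nd4, chrM:11515-11544: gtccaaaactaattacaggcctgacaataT
mt-Cytb, chrM:15259-15288: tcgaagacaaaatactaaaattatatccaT
mt-Co1, chrM:6843-6872: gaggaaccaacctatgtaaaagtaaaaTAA
mt-Nd1, chrM:3678-3707: tttacagcgggagtaccaccatacataTAG

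On 2 of the mature mRNAs, a pair of reading frames overlaps. Both pairs matter below because the upstream frame moved apart from the downstream one. The bases around each junction are shown in the plus orientation, with capitals for the bases that belong to both genes, 43 for mt-Atp8 with mt-Atp6 and 7 for mt-Nd4l with mt-Nd4.
mt-Atp8 and mt-Atp6, chrM:7917-7969: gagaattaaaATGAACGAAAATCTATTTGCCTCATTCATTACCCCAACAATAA
mt-Nd4l and mt-Nd4, chrM:10157-10173: acctactacaATGCTAA

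Each value of the table is an estimated count of reads, with parts of counts that arise when a read is divided between genes or places. Totals were 14477304 to 47438746 counts in the fresh and 4909418 to 11999363 in the RNA-Best libraries, so the RNA-Best libraries were all shallower than the fresh ones and depth cannot be told apart from the group. All 7 gonadotrope markers, among them Lhb, Cga and Gnrhr, had at least 1 CPM (counts per 1000000 scaled counts of a library) in every library, and their summed level was 5132.7 to 5248.0 CPM in fresh and 4255.0 to 4384.3 in RNA-Best. Of the immune markers Ptprc was at 0 and Cd68 was at 2.80 to 3.27 CPM in fresh and 2.83 to 4.06 in RNA-Best. Tshb, the thyrotrope marker, was low but apart, at 0.768 to 1.04 CPM in fresh and 1.22 to 2.26 in RNA-Best. Both endothelial markers were detected, at a summed 191 to 193 CPM in fresh and 193 to 207 in RNA-Best. The lists for somatotropes and lactotropes (with Prl and Pou1f1 at 0 in all libraries), corticotropes, fibroblasts (with Dcn at 0) and erythroid cells each summed to at most 0.339 CPM in any library. What part the differences in markers have in the results was not tested, and values at equal depth are given beside the calls.

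The total of mitochondrially encoded RNA did not separate the groups. The members held 5.12%, 5.24% and 5.05% of all counts in the fresh libraries and 4.97%, 5.30% and 5.15% in the RNA-Best libraries. The means were 5.14% ± 0.0959 (SD, n = 3) and 5.14% ± 0.167 (SD, n = 3), and the values of the groups overlapped (exact permutation test, two-sided, p = 1, where 0.1 is the smallest p that 3 libraries against 3 allow). In bulk RNA, fewer mitochondria per cell and less RNA per mitochondrion cannot be told apart. Nearly all of these counts lay in the mRNAs, which took 5.10% ± 0.0956 (SD, n = 3) of all counts in the fresh group and the same mean, with an SD of 0.165, in RNA-Best. The rRNAs, which lack the long tails that poly(A) selection captures, held 0.0318%, 0.0329% and 0.0328% in fresh and 0.0337%, 0.0380% and 0.0370% in RNA-Best, with every RNA-Best library above every fresh one (exact permutation test, two-sided, p = 0.1). The tRNAs held 0.00250% ± 0.000279 (SD, n = 3) and 0.00310% ± 0.000358 (SD, n = 3), and the groups overlapped (exact permutation test, two-sided, p = 0.2).

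Within this total, single members moved in both directions. Of the 37 members, 17 passed the filter on low counts (all 13 mRNAs, both rRNAs and 2 tRNAs). Under edgeR's quasi-likelihood test with Benjamini-Hochberg adjustment over the 14736 genes tested, 10 of these 17 (58.8%) were called at an adjusted p under 0.05, against 50.8% of all genes tested, so the share was near the background in this fit. Of the called members, 5 were higher in RNA-Best, where 26.0% of all genes tested were: mt-Atp8, mt-Nd4l, mt-Nd5, mt-Tp and mt-Rnr2. The other 5 were lower, where 24.8% of all genes were: mt-Nd3, mt-Nd6, mt-Co3, mt-Co2 and mt-Atp6. The CPM of the groups did not overlap for 9 of the 17, 5 higher and 4 lower, against 57.9% of all genes tested. The median log2 fold change (RNA-Best minus fresh) of the tested members was -0.02, beside -0.01 over all genes tested. These directions depended on the treatment of gene length and base composition. With an offset for length in each library 11 members were higher and 1 lower (70.6% called, against 40.8% of all genes under that offset). With an offset for GC content 4 were higher and 11 lower (88.2%, against 48.2% of all genes). When every library was thinned to the depth of the smallest, 4 of 16 tested were higher and 4 lower (50%, against 41.2% of all genes). At that equal depth mt-Atp8 (0.81), mt-Nd4l (0.49), mt-Nd5 (0.32), mt-Rnr2 (0.25), mt-Nd3 (-0.31), mt-Nd6 (-0.15), mt-Co3 (-0.12) and mt-Co2 (-0.09) were still called, and mt-Tp and mt-Atp6 were not.

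**Figure D1:**
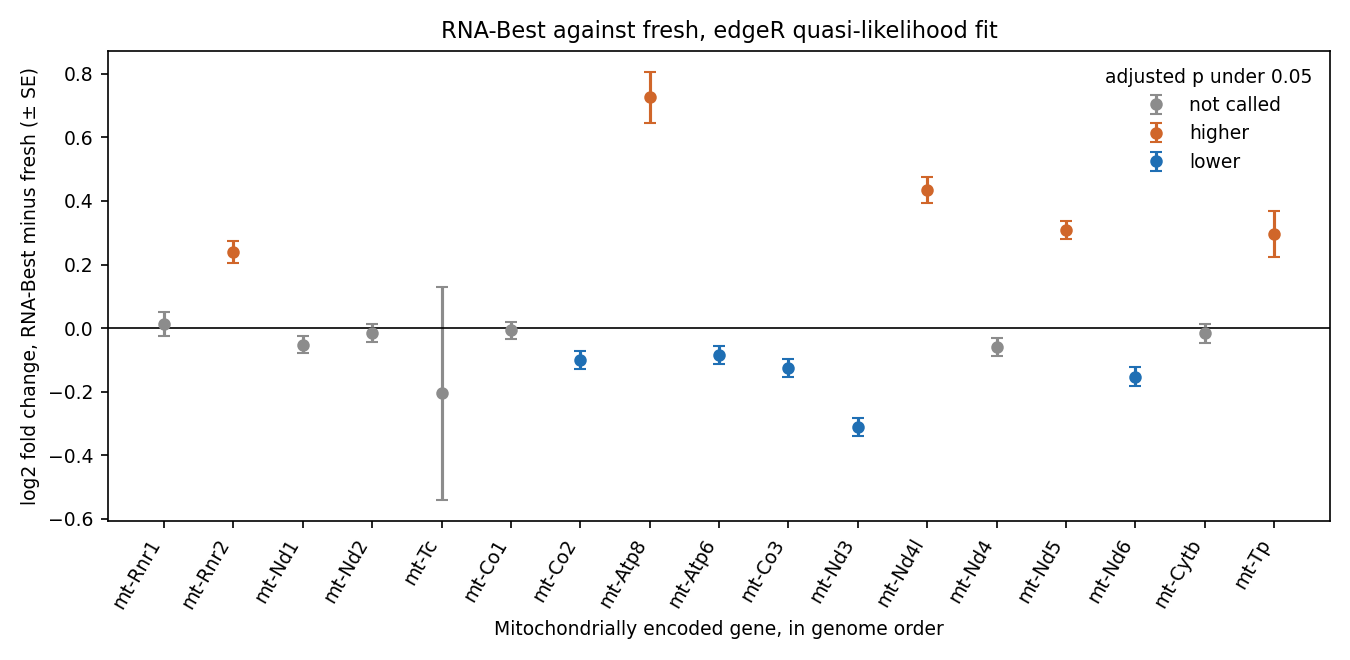
The plot of fold changes shows the 17 tested members in the order of the mitochondrial genome, with the log2 fold change (RNA-Best minus fresh) and its SE from edgeR's fit on the vertical axis and colours for the calls at an adjusted p under 0.05. mt-Atp8 stands highest at 0.73 and mt-Nd3 lowest at -0.31, while most other members lie within 0.2 of 0.

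Complex I takes electrons from NADH, and 7 of its subunits are mitochondrially encoded. Of these, mt-Nd4l and mt-Nd5 were higher, mt-Nd3 and mt-Nd6 were lower, and mt-Nd1, mt-Nd2 and mt-Nd4 were not called. mt-Nd4l had 301, 281 and 248 CPM in the fresh libraries and 365, 396 and 376 CPM in the RNA-Best libraries. Every RNA-Best value lay above every fresh value, with a log2 fold change of 0.43 ± 0.0409 (SE) and an adjusted p of 4.87e-11 by edgeR's quasi-likelihood test. A GC offset gave 0.28. mt-Nd5, the longest of the mRNAs at 1824 bases, had 3538.6, 3528.8 and 3296.7 CPM in fresh and 4199.4, 4397.5 and 4251.3 CPM in RNA-Best. Again the groups did not overlap, and the log2 fold change was 0.31 ± 0.0286 (SE), with an adjusted p of 3.28e-11 by the same test, and fell to 0.10 with a GC offset. mt-Nd5 thereby rose from 6.74% ± 0.195 to 8.44% ± 0.118 (SD, n = 3) of all mitochondrial mRNA counts. In percentage points this was the largest shift of any of the 13 mRNAs in that share. In proportion mt-Atp8 (0.117% to 0.209%) and mt-Nd4l (0.540% to 0.746%) rose further.

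mt-Nd3, a short subunit mRNA of 348 bases that lies directly upstream of mt-Nd4l with a tRNA between them, went the other way. Its values were 508, 503 and 499 CPM in fresh and 396, 412 and 410 CPM in RNA-Best. The fresh libraries were close to each other (SD 4.78 CPM) and the RNA-Best libraries all lay below them, with a log2 fold change of -0.31 ± 0.0278 (SE) and an adjusted p of 1.42e-11 (edgeR's quasi-likelihood test). It was -0.13 with a length offset and -0.58 with a GC offset. mt-Nd6, the only mRNA in the minus orientation, had 1276.1, 1299.6 and 1212.5 CPM in fresh and 1079.6, 1198.0 and 1141.1 CPM in RNA-Best. Its groups did not overlap and the log2 fold change was -0.15 ± 0.0308 (SE, adjusted p = 8.34e-05 by edgeR), but with a length offset it was 0.02 and with a GC offset -0.41. The strand setting of the counting is not given in the sources used here, so reads of mt-Nd6 and reads antisense to it, from the RNA of the opposite strand, cannot be told apart. mt-Nd1, mt-Nd2 and mt-Nd4 had fresh means of 5558.6, 4059.1 and 3988.2 CPM and RNA-Best means of 5365.5, 4021.6 and 3830.9 CPM. All 3 overlapped between the groups, with log2 fold changes of -0.05, -0.01 and -0.06. By limma voom, the tool the authors used, mt-Nd1 and mt-Nd4 were called lower (-0.06 and -0.07, adjusted p = 0.0128 and 0.0108). That made 7 members lower in all beside 5 higher (70.6% called, against 50.6% of all genes tested by voom). With a GC offset all 3 were called lower (-0.26, -0.25 and -0.29), and with a length offset mt-Nd1 and mt-Nd2 were called higher (0.09 and 0.12).

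Complex III and complex IV pass the electrons to oxygen. mt-Cytb, the one mitochondrially encoded subunit of complex III, was not called, with a mean of 6798.2 CPM over the fresh libraries (SD 41.2, n = 3) and 6723.6 CPM over the RNA-Best libraries (SD 315, n = 3). mt-Co1, the catalytic subunit of complex IV and the most abundant member, had 14609.5, 15003.0 and 14506.6 CPM in fresh and 14305.8, 14970.9 and 14650.7 CPM in RNA-Best. Its groups overlapped, and the log2 fold change was -0.01 ± 0.0275 (SE). mt-Co1 and mt-Cytb were called higher with a length offset (both 0.11) and lower with a GC offset (-0.18 and -0.20). The other complex IV subunits were both called lower. mt-Co3 had 3815.7, 3809.1 and 3794.2 CPM in fresh and 3336.2, 3628.1 and 3514.1 CPM in RNA-Best. The fresh values of mt-Co3 were close together (SD 11 CPM) and those of RNA-Best were all lower, with a log2 fold change of -0.13 ± 0.0279 (SE, adjusted p = 0.000297 by edgeR), which was 0.03 with a length offset and -0.31 with a GC offset. mt-Co2, which binds cytochrome c, had 3422.6, 3589.3 and 3456.0 CPM in fresh and 3141.4, 3373.3 and 3256.1 CPM in RNA-Best. Here too the groups did not overlap, by a narrow margin, with a log2 fold change of -0.10 ± 0.0281 (SE, adjusted p = 0.00300 by edgeR) that turned to 0.06 with a length offset and was -0.29 with a GC offset.

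ATP synthase has 2 mitochondrially encoded subunits, and they moved in opposite directions although they share an mRNA. mt-Atp8 had 64.5, 67.4 and 48.7 CPM in fresh and 85.9, 131 and 103 CPM in RNA-Best. All RNA-Best values were higher, although they spread over a wider range, and the log2 fold change of 0.73 ± 0.0794 (SE, a fold of 1.65) was the largest among the members (adjusted p = 1.44e-09 by edgeR) and was 0.44 with a GC offset. mt-Atp6, which forms the proton path of the enzyme, had 3221.1, 3407.2 and 3250.5 CPM in fresh and 3004.8, 3221.5 and 3096.4 CPM in RNA-Best. The highest RNA-Best value exceeded the lowest fresh value by less than 1 CPM, so the groups overlapped. Its log2 fold change was -0.08 ± 0.0284 (SE, adjusted p = 0.0124 by edgeR). The call of mt-Atp6 was lost when the counts of its nuclear copy were added (adjusted p = 0.121), after thinning (0.0623), and on leaving out either fresh replicate 2 (0.101) or RNA-Best replicate 1 (0.0808), and with a length offset it reversed to a call of higher (0.08, adjusted p = 0.0365), while a GC offset gave -0.31.

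**Figure D2:**
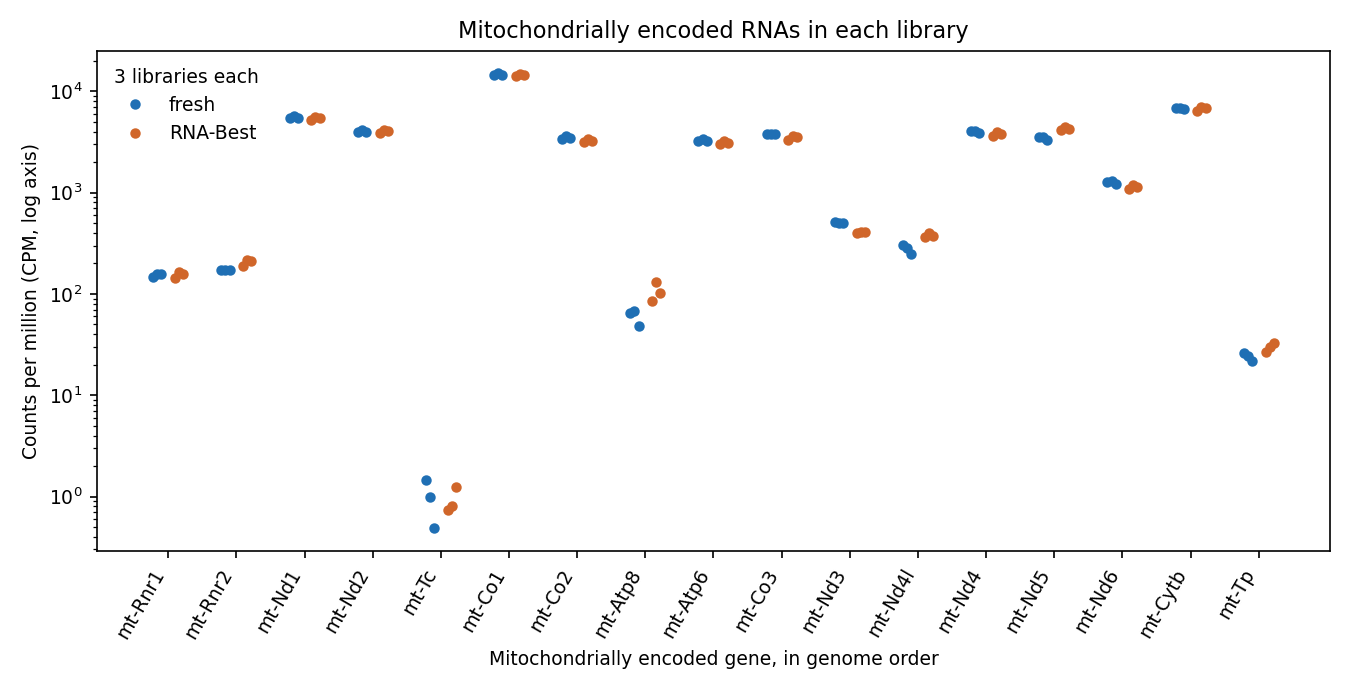
The plot of levels shows the CPM of each of the 17 tested members (log axis) in the 3 fresh and the 3 RNA-Best libraries, 1 point per library, in genome order. Levels span from 0.486 CPM for mt-Tc to 15003.0 CPM for mt-Co1, and the groups are visibly apart for mt-Atp8, mt-Nd3, mt-Nd4l and mt-Nd5.

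Of the 2 rRNAs, mt-Rnr2 was called and mt-Rnr1 was not. mt-Rnr1, the small-subunit rRNA, had 147, 156 and 156 CPM in fresh and 145, 163 and 158 CPM in RNA-Best, which overlapped, with a log2 fold change of 0.01 ± 0.0372 (SE), but it was called higher with a length offset (0.15) and lower with a GC offset (-0.21). mt-Rnr2, the large-subunit rRNA, had 173, 174 and 174 CPM in fresh and 190, 217 and 211 CPM in RNA-Best. The 3 fresh values of mt-Rnr2 were nearly equal and all RNA-Best values were above them, with a log2 fold change of 0.24 ± 0.0351 (SE, adjusted p = 5.19e-07 by edgeR). This call was lost with a GC offset, where the log2 fold change was 0.01. The ratio of mt-Rnr2 to mt-Rnr1 counts was 1.17, 1.12 and 1.11 in fresh and 1.31, 1.33 and 1.34 in RNA-Best. The difference between the rRNAs was therefore seen in each library and was 1.17-fold (exact permutation test on log2 ratios, two-sided, p = 0.1, adjusted p = 0.1 over 6 ratios).

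Per length, both rRNAs lay below every mRNA in these libraries made by poly(A) selection. On the scale of CPM per kilobase, and with reads divided with nuclear copies as deposited, mt-Co1 led at 9518.7 ± 170 (SD, n = 3) in fresh, followed by mt-Cytb at 5942.5 ± 36.1 and mt-Nd1 at 5808.3 ± 81.8. Among the 17 tested members, neighbours in this order did not overlap in the fresh libraries except mt-Co3 with mt-Atp6 (4855.0 ± 14.0 and 4835.4 ± 147) and mt-Tp with mt-Atp8 (359 ± 33.9 and 295 ± 49.3). mt-Nd4l at 932 ± 89.6 and mt-Atp8 had the lowest values of the mRNA genes, and mt-Rnr1 and mt-Rnr2 lay at 160 ± 5.49 and 110 ± 0.487. In RNA-Best the order of the means of these deposited counts differed by neighbouring places only: mt-Atp6 passed mt-Co3, mt-Nd5 passed mt-Nd6, mt-Nd4l passed mt-Nd3, and mt-Atp8 passed mt-Tp. The order was another with the counts of the nuclear copies described below added. Then mt-Atp6 (10923.2 ± 351), mt-Co2 (10710.2 ± 273) and mt-Co3 (9772.7 ± 24.8) followed mt-Co1 (12856.3 ± 255) in fresh, ahead of mt-Cytb and mt-Nd1, and mt-Atp6 overlapped mt-Co2. On that scale mt-Nd4l went from place 12 in fresh to place 9 in RNA-Best, and mt-Nd6 from place 10 to place 12. Counts of mt-Atp8 rest on few positions, since a read of the length used can start at only 62 places without touching a neighbouring gene. For mt-Nd4l there are 191 such places. The scale divides by annotated length (204 bases for mt-Atp8, 297 for mt-Nd4l) and not by these places. Both are frames on an mRNA shared with a longer gene, so their low values do not measure the amount of that mRNA.

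Most mitochondrial tRNAs were not seen at all. Counts were 0 in all 6 libraries for 18 of the 22 tRNAs, which allows up to 3 counts per library, or 0.0635 CPM where depth was greatest and 0.609 CPM where it was least. The tRNAs are 59 to 75 bases long and lie against other genes, and the reads were longer than any of them. A read of that length can touch the tRNA and no other annotated gene on either strand at 0 start positions for 20 of the 22 tRNAs, so under counting without strand an absence of counts says little about their level. If only genes of the same strand compete for a read, 12 of the 22 have start positions of their own, and 9 of these 12 had 0 counts. The strand setting is not given, so which of these applies was not tested. The 4 tRNAs with counts, mt-Tp, mt-Tc, mt-Tn and mt-Te, carry proline, cysteine, asparagine and glutamate. All 4 are among the 8 tRNAs in the minus orientation, and 0 of the 14 in the plus orientation had a count. Their gene sequences in the minus orientation are shown because they are the only tRNAs with data.
mt-Tp, chrM:15356-15422: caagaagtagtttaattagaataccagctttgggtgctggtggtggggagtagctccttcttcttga
mt-Tc, chrM:5192-5257: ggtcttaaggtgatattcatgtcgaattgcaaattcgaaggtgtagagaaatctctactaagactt
mt-Tn, chrM:5089-5159: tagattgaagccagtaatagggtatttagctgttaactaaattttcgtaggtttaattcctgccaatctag
mt-Te, chrM:14071-14139: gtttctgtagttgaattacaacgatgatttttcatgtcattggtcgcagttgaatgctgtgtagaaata

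mt-Tp, at the end of the row of genes beside the control region, had the most counts of the tRNAs. It also had the most start positions free of genes on either strand, 67. If only genes of the same strand compete it had 167, and mt-Tq (171) and mt-Ts1 (169) had more, with 0 counts. It had 26.3, 24.2 and 21.7 CPM in fresh and 26.6, 29.9 and 33.1 CPM in RNA-Best. The RNA-Best values were all higher, the nearest by a small margin, with a log2 fold change of 0.30 ± 0.0726 (SE, adjusted p = 0.000814 by edgeR). The call was lost after thinning (0.24, adjusted p = 0.0588) and on leaving out RNA-Best replicate 3 (0.18, adjusted p = 0.107). It was kept, at 0.19, with a GC offset and, at 0.45, with a length offset. Because strand is not given, its counts may hold reads of the opposite strand next to the control region. mt-Tc had 1.47, 0.995 and 0.486 CPM in fresh and 0.736, 0.812 and 1.25 CPM in RNA-Best, which overlapped. mt-Tn, with 5.33 counts over all libraries, and mt-Te, with 1.5, were below the filter. mt-Tc and mt-Te had counts although 0 start positions were free of other genes on either strand (on their own strand 0 for mt-Tc and 69 for mt-Te), and how those reads came to be counted was not tested.

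Nuclear DNA holds copies of mitochondrial DNA, and reads of identical stretches cannot be assigned to either place. Annotated mitochondrial transcripts were aligned to all annotated nuclear transcripts, a source chosen after the files were seen. At least 95% identity over at least 100 bases was found for 11 nuclear genes, which matched 9 of the members, and 16 genes passed at 90%. Of the 11, 7 lie in a single run in the minus orientation of chromosome 1 (chr1:24611535-24616197, GRCm38), 3 on chromosome 2 and 1 on chromosome 13. The 5 copies with the most counts are all in that run: Gm29216 (mt-Co1), Gm10925 (mt-Atp6), Gm28437 (mt-Co3), Gm28661 (mt-Co2) and Gm28439 (mt-Nd4). Identity was 100% for 5 of the 7 copies in the run. For mt-Co1 with Gm29216 and for mt-Nd3 with Gm28438 it was 99.8% and 99.7%, with 1 mismatch each, A1066T and T3C, counted from 1 at the start of the mitochondrial gene. The bases around both are shown, with the differing base in capitals, since a read is told apart only if it covers that base.
mt-Co1, chrM:6390-6408: ggaAttgttttatccaact
Gm29216, chr1:24616170-24616188: ggaTttgttttatccaact
mt-Nd3, chrM:9459-9476: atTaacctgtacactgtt
Gm28438, chr1:24613102-24613119: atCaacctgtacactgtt

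In the run on chromosome 1, the copies that match nearly the whole of a member had counts close to those of the member, except Gm10925, at 1.26 times mt-Atp6 in fresh and 1.31 times in RNA-Best. Gm28661 and mt-Co2 had near-equal counts (a rounded ratio of 1) in both groups, with an SD of at most 0.000245. Gm28437 and mt-Co3 had ratios of 1.01. Copies at 95% identity together held 1.90%, 1.96% and 1.89% of all counts in fresh and 1.75%, 1.87% and 1.80% in RNA-Best, all lower (exact permutation test, two-sided, p = 0.1). Members and copies together held 7.05% ± 0.136 (SD, n = 3) and 6.95% ± 0.229 (SD, n = 3), which overlapped (exact permutation test, two-sided, p = 0.5). Of the 11 copies, 2 were called higher and 6 lower by edgeR (72.7%, against 50.8% of all genes tested), and in 8 the groups did not overlap, against 57.9% of all genes tested. With the copies added to their members, 5 members were higher and 4 lower (52.9% called, against 50.6% of all genes in that setting, so near the background). Without the 9 of the 17 tested members that have an annotated copy, 3 were higher and 1 lower, where 26.0% and 24.8% of all genes tested were. This setting is not free of divided reads. Only annotated transcripts were searched, so copies without an annotation are missed. Between Gm10925 and Gm28661 the run holds 233 bases with no copy listed (chr1:24614652-24614884), and by order and length these would match chrM:7694-7926, which includes most of mt-Atp8. That stretch was not aligned here. No annotated copy at 95% was found for mt-Atp8, mt-Nd6, mt-Rnr2 and mt-Tp, but parts of counts in 3 libraries for mt-Atp8, in 4 for mt-Nd6 and in 5 for mt-Rnr2 show that some of their reads were divided as well.

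Copies that cover only a stretch of a gene divided its reads by position. Gm28439 matches bases 1 to 876 of the 1378 bases of mt-Nd4, and Gm29216 matches bases 1063 to 1545 of the 1545 bases of mt-Co1. These comparisons were chosen after their values were seen and are given with no test. Gm28439 had 1370.1, 1309.3 and 1255.1 CPM in fresh and 1420.7, 1557.5 and 1497.0 CPM in RNA-Best, so this 5′ stretch of mt-Nd4 was higher in every RNA-Best library. The counts of mt-Nd4 beyond those of Gm28439, which stand for the rest of the gene if identical reads were divided equally, were 2673.6, 2751.3 and 2605.1 CPM in fresh and 2228.6, 2451.3 and 2337.6 CPM in RNA-Best, all lower. The log2 fold change of mt-Nd4 as a whole, -0.06, thus joined a stretch with higher counts to one with lower counts.

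mt-Co1, also not called as a whole, showed the same order of its ends. Gm29216, the 3′ stretch, had 4619.8, 4919.1 and 4755.0 CPM in fresh and 3917.0, 4187.0 and 3958.4 CPM in RNA-Best, all lower. The counts of mt-Co1 beyond those of Gm29216 were 9989.7, 10084.0 and 9751.5 CPM in fresh and 10388.7, 10784.0 and 10692.2 CPM in RNA-Best, all higher. As ratios, Gm28439 to mt-Nd4 was 0.329 ± 0.00878 (SD, n = 3) in fresh and 0.389 ± 0.000942 in RNA-Best, and Gm29216 to mt-Co1 was 0.324 ± 0.0067 and 0.275 ± 0.00479. In both mRNAs the 5′ stretch was relatively higher and the 3′ stretch relatively lower in RNA-Best, if identical reads were divided equally. Each remainder was found by subtraction from a nearly unchanged whole, so the opposite moves within a gene are not independent observations. Gm13340, which matches all of mt-Co1 at 97.6% identity and had a mean of 392 CPM in fresh and 367 in RNA-Best, was not taken into account.

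The overlapping frames gave the same order along their mRNAs, the upstream frame higher relative to the downstream one. The ratio of mt-Atp8 to mt-Atp6 was 0.02, 0.0198 and 0.015 in fresh and 0.0286, 0.0408 and 0.0332 in RNA-Best, a difference of 1.87-fold. The ratio of mt-Nd4l to mt-Nd4 was 0.0743, 0.0693 and 0.0643 in fresh and 0.100, 0.0987 and 0.0979 in RNA-Best, a difference of 1.43-fold. Both sets of values were apart, each at the smallest p the design allows (exact permutation tests on log2 ratios, two-sided, p = 0.1, adjusted p = 0.1 over 6 ratios). The other 3 ratios were apart as well at the same p: rRNA to mRNA was 1.11-fold and tRNA to mRNA 1.24-fold higher in RNA-Best, and mt-Nd6 to the 12 plus-orientation mRNAs was 0.909 times the fresh ratio. Gm10925, the copy of mt-Atp6, exceeded mt-Atp6 by 853 ± 49.4 CPM (SD, n = 3) in fresh and 948 ± 37.4 CPM in RNA-Best. This excess, also chosen after its values were seen, was higher in every RNA-Best library, and which reads make it up was not tested.

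**Figure D3:**
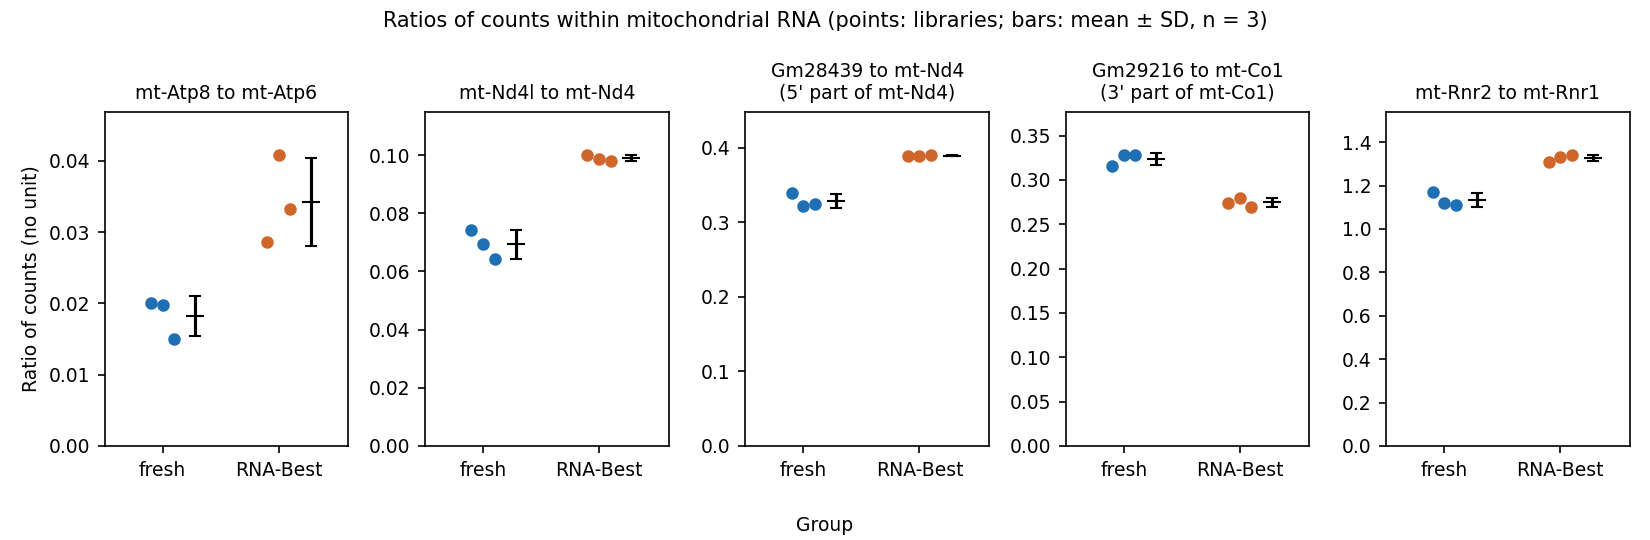
The plot of ratios shows 5 ratios of counts within mitochondrial RNA, each in its own panel with a linear axis from 0, as points for the 3 libraries of each group and bars for the mean ± SD. The groups are apart in all 5 panels, with RNA-Best higher for mt-Atp8 to mt-Atp6, mt-Nd4l to mt-Nd4, Gm28439 to mt-Nd4 and mt-Rnr2 to mt-Rnr1, and lower for Gm29216 to mt-Co1.

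Length and the log2 fold change of the mRNAs were set side by side as a description. Across the 13 mRNAs, Spearman's rho of the log2 fold change with annotated length was 0.148. Without mt-Atp8 and mt-Nd4l, which were left out after their values were seen because they stood apart, it was 0.900 over 11 mRNAs, a value that rests on that choice. Across 14689 tested genes with a length, rho was 0.522. These are descriptions across genes of the same 6 libraries, which share depth and preparation, and genes are not independent replicates. With GC content, rho was 0.253 over the 13 mRNAs, 0.473 over the same 11 and -0.322 over 14677 genes.

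**Figure D4:**
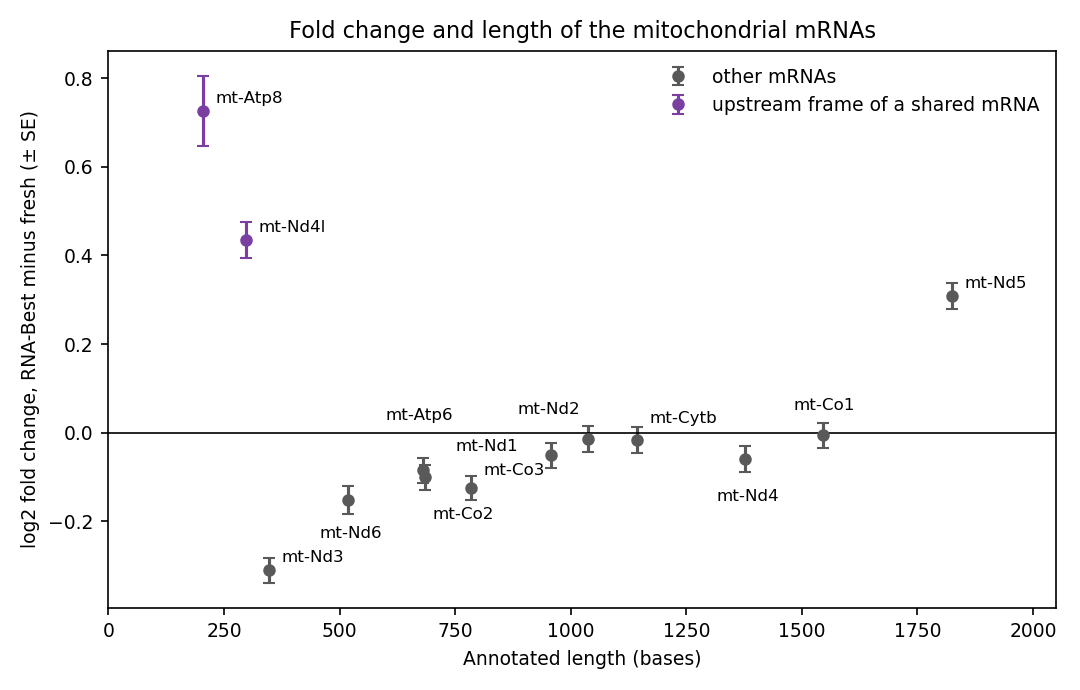
The plot of fold change by length places each of the 13 mRNAs by its annotated length in bases and its log2 fold change ± SE (RNA-Best minus fresh), with the upstream frames mt-Atp8 and mt-Nd4l in purple. The upstream frames stand highest at 0.73 and 0.43 although they are the shortest, and the other 11 lie between mt-Nd3 at -0.31 and mt-Nd5 at 0.31.

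Of the nuclear genes that copy mitochondrial DNA and make and handle its RNA, most were not called. A list of 48 such genes held 4 that were higher and 7 that were lower (22.9% called, against 50.8% of all genes tested), with a median log2 fold change of -0.05. Polrmt, the mitochondrial RNA polymerase, and Tfam, which packages the DNA and starts transcription, were not called, with log2 fold changes of -0.10 each. Polg and Polg2, the subunits of the mitochondrial DNA polymerase, were higher by 0.11 and 0.27 on the log2 scale, and Fastkd1, of a family of mitochondrial RNA-binding proteins, by 0.30. Lrpprc, which with Slirp protects mitochondrial mRNAs, was higher by 0.09, while Slirp was lower (log2 fold change -0.46, adjusted p = 1.05e-06 by edgeR). Among those lower were also Gtpbp3 (-0.32), which modifies tRNAs, Mrm3 (-0.27), which methylates mt-Rnr2, Rexo2 (-0.22), which degrades short RNA fragments, and Hsd17b10 (-0.22), a subunit of the enzyme that cuts the 5′ ends of tRNAs. Mtpap, the poly(A) polymerase, Pnpt1, an exoribonuclease, and Elac2, which cuts the 3′ ends of tRNAs, were not called (0.08, 0.07 and -0.07). The number called higher fell to 2 of 48 with a length offset, where 15.5% of all genes were higher. The number called lower rose to 17 of 48 with a GC offset, where 26.4% of all genes were lower. Without an offset it was 7 of 48, where 24.8% of all genes were lower.

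The nuclear-encoded partners of the 13 proteins were nearly all lower. Of 60 nuclear-encoded subunits of complexes I, III, IV and V, 0 were higher and 58 lower by edgeR (96.7% called, against 50.8% of all genes tested, of which 24.8% were lower), with 0 higher also at an unadjusted p under 0.05 and by limma voom and DESeq2. The median log2 fold change was -0.30, and the 13 mitochondrial mRNAs had 3 higher, 5 lower and a median of -0.05. Atp5e (-0.53), Atp5g1 (-0.49) and Cox6c (-0.48), small subunits of ATP synthase and complex IV, fell furthest. Cox4i1 of complex IV had a log2 fold change of -0.36 and Atp5a1 of ATP synthase -0.22, and Ndufs1 of complex I, at -0.05, was not called. The difference between the lists was not tested.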

How the data were processed

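Libraries were made from poly(A) RNA with a TruSeq kit and sequenced as single reads of 101 bases. The authors aligned the reads to mm10 (GRCm38) with STAR 2.5.1b and counted them per gene with featureCounts 1.5.0-p1, and the deposited values are estimated counts, not scaled for library size, of which some are divided reads. Settings for strand and for reads with several places are not given in the sources used here. The deposited columns named for stabilized cells were taken as the RNA-Best libraries of the labels.

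Counts were rounded and fitted over all genes with the quasi-likelihood test of edgeR 4.0.16 (R 4.3.3, TMM scaling, filterByExpr with a minimum count of 10, no covariate). A call is a Benjamini-Hochberg adjusted p under 0.05. CPM use the TMM-scaled library sizes. For single values, exact permutation tests were used. Limma 3.58.1 (voom), DESeq2 1.42.0, other scalings, no filter, length and GC offsets (loess, span 0.5), thinning, a replicate block and leaving out single libraries were alternatives. The script was tested on simulated counts. Deviations of same-numbered libraries correlated at -0.00733, 0.0102 and -0.00784, so no pairing by replicate number was seen. Spread within a group was close to counting noise, so this check cannot exclude a pairing. The replicate block was run for that reason. The chi-square between libraries of a group was 1.08 to 1.95 per gene, and the lower values are near what counting noise alone gives. It therefore cannot tell separate cultures from repeat libraries of the same RNA, and all 6 were kept as separate libraries. The biological coefficient of variation in the fit was small, at 2.14%, and the calls rest on that spread.

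Positions, lengths and sequences came from GENCODE M21 on GRCm38, which matched 46574 of 47069 genes. Nuclear copies were found by aligning annotated transcripts with BLAST+ 2.17.0, in place of a genome, which misses copies without an annotation. Members, lists, tests and the rule for named genes (all members, the 5 copies with the most counts, up to 5 or 3 list genes in each direction by fold change, and some chosen by role) were set with earlier results of these data known. Gm28438 was named after its values were seen. Spike-in controls were not analysed here.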

Additional observations from a re-analysis of the deposited data

How the results depend on the processing

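Of the 10 called members, mt-Atp8, mt-Nd3, mt-Nd4l and mt-Nd5 kept their direction and call under all 19 alternatives, but not their size. Their log2 fold changes ranged from 0.4375 to 0.9807 for mt-Atp8, -0.5846 to -0.1257 for mt-Nd3, 0.2787 to 0.6383 for mt-Nd4l and 0.0969 to 0.4084 for mt-Nd5, with GC and length offsets at the ends. A length offset gave 11 members called higher and 1 lower (70.6% called, against 40.8% of all genes). Joined to the replicate block it gave 12 and 1 (76.5%, against 40.5%). A GC offset gave 4 higher and 11 lower, without or with the block (88.2% called each time, against 48.2% and 49.2% of all genes). With no filter 5 were higher and 9 lower, which was 73.7% of the 19 members tested, against 28.0% of all genes. Without the 9 of the 17 tested members that have an annotated nuclear copy, chosen after the data were seen, 3 were higher and 1 lower. Of all genes tested 26.0% were higher and 24.8% lower. The replicate block alone left 5 higher and 5 lower, the same members (58.8% called, against 50.7% of all genes). It left 3 in place of 4 of the RNA machinery genes called higher, where 25.9% of all genes were. Leaving out single libraries gave 4 to 5 higher and 4 to 6 lower (52.9% to 64.7% called, against 42.4% to 49.3% of all genes). Causes were not tested.

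Log2 fold changes that turned to the other side of 0 did so mainly with a length offset, given here without and with the replicate block. They were 0.0887 and 0.0886 for mt-Nd1, 0.1206 and 0.1211 for mt-Nd2, 0.1066 and 0.1065 for mt-Co1, 0.0603 and 0.0610 for mt-Co2, 0.0763 and 0.0773 for mt-Atp6, 0.0274 and 0.0273 for mt-Co3, 0.0598 and 0.0603 for mt-Nd4, 0.0222 and 0.0260 for mt-Nd6, and 0.1122 and 0.1114 for mt-Cytb. With the block and offset mt-Tc was at 0.0438. mt-Rnr1 was at -0.0334 with no filter, -0.2142 with a GC offset, -0.2186 with the block as well, and -0.0102 after thinning. mt-Nd4 was at 0.0075 with nuclear copies added. With single libraries left out, the range was -0.0192 to 0.0607 for mt-Rnr1, -0.0406 to 0.0140 for mt-Nd2, -0.6142 to 0.1432 for mt-Tc, -0.0207 to 0.0092 for mt-Co1 and -0.0442 to 0.0190 for mt-Cytb.

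For the list of RNA machinery, the number called higher was 1 with no filter, 2 with DESeq2, 2 with a length offset, 0 with that offset and the block, and 1 after thinning, and 2 to 4 with single libraries left out. In the same order 11.9%, 21.7%, 15.5%, 15.2%, 21.8% and 22.6% to 25.5% of all genes tested were higher. The number called lower was 13 with no filter, 17 with a GC offset and 16 with that offset and the block, where 16.1%, 26.4% and 27.1% of all genes tested were lower. The share of counts in the members differed by 0.00204 percentage points, with RNA-Best higher, and by -0.0117 over protein-coding counts, by -0.104 with nuclear copies added and by -0.0792 to 0.0875 with single libraries left out. All ratios within mitochondrial RNA kept their direction when single libraries were left out and, where this was run, with nuclear copies added. Length and GC offsets and thinning were not run for the ratios. The depth of the shallowest library, 4909418 counts, limits what can be said of mt-Tc, mt-Tn and mt-Te.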
